A study of Homo sapiens with 10 samples.

Results

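Integrins and laminins are described here in GIST-T1, a human cell line, long established, from a metastatic gastrointestinal stromal tumour (GIST), and in 4 derivative lines in which a CTCF insulator had been disrupted. The set held every gene whose symbol names a laminin alpha, beta or gamma chain or an integrin alpha or beta chain. These were 38 of the 58381 genes in the deposited tables, 26 of them integrin genes and 12 laminin genes. The rule reads the symbol alone. The groups were the control GIST-T1 cells, given as wild type, and the lines InsE, InsF, InsG and InsH, with 2 RNA-seq libraries each. All cells were GIST-T1 cells grown in DMEM with 10% serum. CTCF binds DNA at the ends of many chromosome loops, and an insulator is a CTCF-bound site that keeps an enhancer from acting across it. What was edited in each line, whether a line is 1 clone and whether a group's libraries came from separate cultures is not in the labels. The p-values therefore measure only how these libraries vary, which may be technical.

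Laminins are secreted proteins of 3 chains, an alpha, a beta and a gamma chain, that polymerise into the basement membrane under and around cells. Integrins are receptors of an alpha and a beta chain that span the plasma membrane and tie the matrix outside to the actin cytoskeleton inside. The pair of chains sets the ligand: some pairs bind laminin, others collagen, and others the RGD (arginine-glycine-aspartate) motif of fibronectin and vitronectin. In the gut wall, the interstitial cells of Cajal, to which GIST is related, lie in contact with smooth muscle and are wrapped in a basement membrane.

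The stretches before the start of 4 genes are shown because these genes carried the main patterns: LAMB1 and LAMC1 moved in opposite directions in InsE and the other lines, ITGAV differed between InsE and the others, and ITGB5 fell by a like amount in every line. They are RefSeq sequences of the build GRCh38.p14, written 5′ to 3′ on the strand of the gene, and capitals mark the letters GGGCGG (a GC box, as bound by SP1-type factors) or the same box on the other strand. LAMB1 is at chr7:108003256-108003411 (minus strand), LAMC1 at chr1:183023260-183023419 (plus strand), ITGAV at chr2:186589896-186590055 (plus strand) and ITGB5 at chr3:124901419-124901578 (minus strand).
LAMB1: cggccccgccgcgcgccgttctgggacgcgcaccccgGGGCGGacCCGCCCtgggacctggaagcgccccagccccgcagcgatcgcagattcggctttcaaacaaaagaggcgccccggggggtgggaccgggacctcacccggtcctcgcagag
LAMC1: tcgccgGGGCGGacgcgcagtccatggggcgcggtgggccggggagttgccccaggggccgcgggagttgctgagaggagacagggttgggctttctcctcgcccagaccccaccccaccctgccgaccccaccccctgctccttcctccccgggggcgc
ITGAV: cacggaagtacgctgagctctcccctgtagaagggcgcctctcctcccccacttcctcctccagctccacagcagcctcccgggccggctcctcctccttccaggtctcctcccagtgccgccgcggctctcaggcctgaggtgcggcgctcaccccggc
ITGB5: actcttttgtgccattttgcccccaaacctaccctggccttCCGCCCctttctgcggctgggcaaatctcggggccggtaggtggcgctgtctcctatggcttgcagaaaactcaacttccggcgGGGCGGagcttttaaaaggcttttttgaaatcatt
The LAMB1, LAMC1 and ITGAV stretches were 75.0%, 75.6% and 70.6% G and C, and that of ITGB5 was 54.4%. The box stood in 3 of the 4 stretches and its letters were not in the ITGAV window. Over the 250 bases before the start, GGGCGG on either strand stood in 13 of the 26 members with a promoter in the RefSeq table, and in 42.6% of 35116 promoters of all genes. The letters TGANTCA of an AP-1 site stood before 1 of these 26 members and before 6.57% of all promoters. The letters TATAAA of a TATA box did so before 1 member and 10.7% of promoters. A match describes the letters and is not a bound site.

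The libraries held 9.4 to 42.5 M (mega, expected) counts, with 9.4 M in InsE replicate 2, the shallowest. In every group replicate 2 held fewer counts than replicate 1. Levels compared between libraries are in CPM (counts scaled to library size and, by TMM, for composition), and levels compared between genes are in the deposited TPM (transcript shares corrected for length). Of 10 markers of GIST and interstitial cells of Cajal, all 10 had a mean TPM of at least 1. Their summed level was 4019 to 4029 TPM in the control, 2978 to 3003 in InsE and 3163 to 3293 in the other lines. Of 12 leukocyte markers, 1 reached a mean of 1 TPM, and CD3D and MS4A1 were at 0 counts throughout.

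In the control cells the set was dominated by few chains. LAMB1, the beta-1 chain of most laminins, had the highest level of the 38 genes, with 401 and 413 TPM in the control libraries. Among the laminin genes LAMB2 followed with 90.8 and 90.0 TPM, LAMA5, the alpha-5 chain, with 59.3 and 54.7, and LAMC1, the gamma-1 chain, with 42.9 and 47.0. In CPM the control means had another order, at 165 for LAMA5, 153 for LAMC1 and 95.6 for LAMB2. RSEM's effective length was 1196 to 1838 bases for LAMB2, 3233 to 4629 for LAMA5 and 4770 to 6188 for LAMC1 over all libraries. LAMA5 made up 96.8% to 99.6% of the summed TPM of the 5 laminin alpha genes over the 10 libraries. Chains of the common laminins that contain alpha-5, beta-1 or beta-2, and gamma-1 were thus the ones measured at high levels. LAMB1 RNA stood 9.35- and 8.78-fold above LAMC1 RNA on the TPM scale in the control.

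ITGB1, the beta-1 chain that pairs with most alpha chains, and ITGB5, a beta chain that pairs with alpha-V, together held nearly all integrin beta RNA. ITGB1 had 255 and 243 TPM and ITGB5 242 and 230 TPM in the control libraries, ranges that do not overlap but lie close. Over all libraries ITGB1 made up 51.0% to 63.7% and ITGB5 36.0% to 48.5% of the summed TPM of the 8 beta genes. Among the alpha chains ITGA5, of the fibronectin receptor, led with 76.9 and 74.9 TPM. ITGA4, ITGAE and ITGA6 followed at 63.7 and 65.9, 55.4 and 60.5, and 54.1 and 53.0 TPM. The control libraries of ITGA4 lay above those of ITGAE, and those of ITGAE above those of ITGA6. ITGAE is a short case, since its counts were assigned to models with an effective length of under 500 bases, which raises TPM for a given count. Its CPM was only 18.2 and 19.8, against 175 and 174 for ITGA6.

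**Figure D1:**
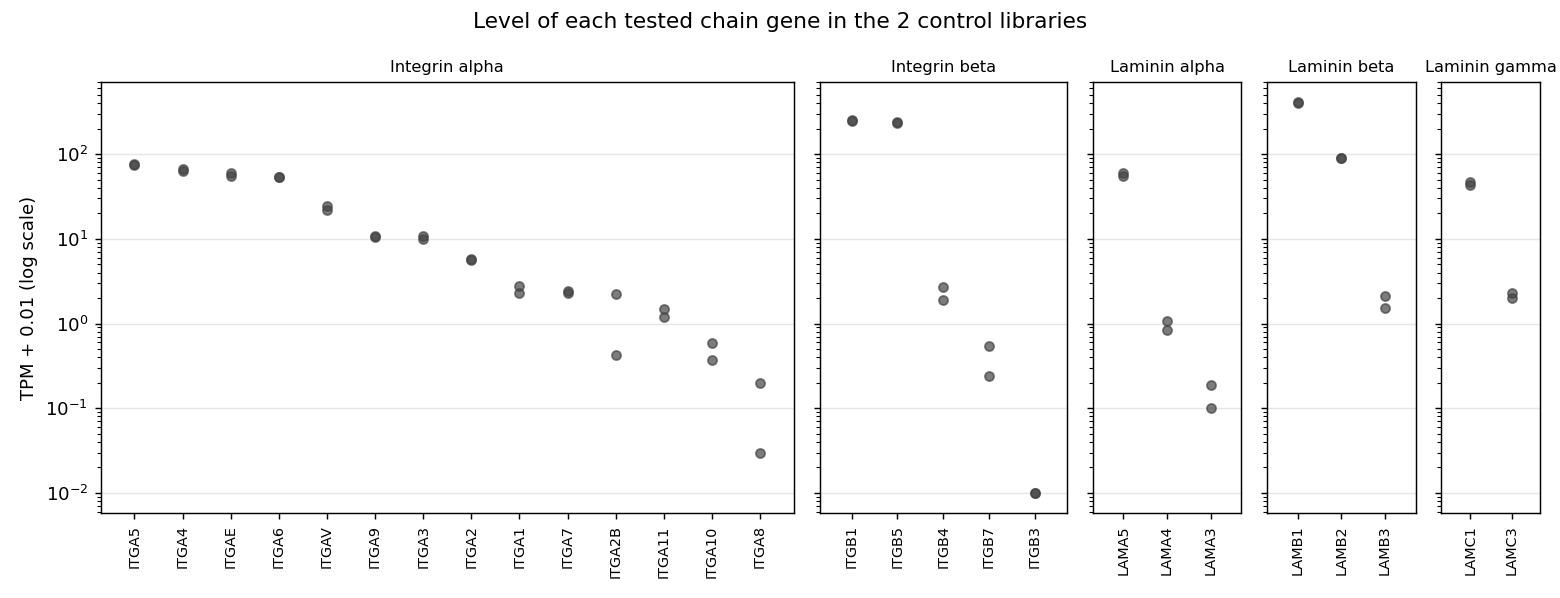
TPM of each of the 27 tested chain genes in the 2 control libraries (1 point per library, log scale after adding 0.01, so ITGB3, listed at 0 TPM, sits at 0.01), by class of chain. LAMB1, ITGB1 and ITGB5 sit above 200 TPM, and LAMA5, LAMB1 and LAMC1 lead their classes.

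Of the 38 genes, 27 passed the expression filter and were tested with edgeR's quasi-likelihood test (Benjamini-Hochberg adjustment over all 15554 genes tested, threshold 0.05), 19 integrin and 8 laminin genes. Against the control, 12 passed in InsE, 3 higher and 9 lower, where 23.2% of all tested genes passed, 10.8% as higher and 12.4% as lower. The 9 include LAMA4, which had no InsE library at the level of the expression filter, so its call there supports nothing. In InsF 15 passed, 10 higher and 5 lower, against 22.3% of all genes (10.9% and 11.3%). In InsG 13 passed, 9 higher and 4 lower, against 20.3% of all genes (9.86% and 10.5%). In InsH 11 passed, 8 higher and 3 lower, against 18.4% (8.95% and 9.46%). The median log2 change of the 27 genes was -0.21 in InsE and 0.25, 0.28 and 0.23 in InsF, InsG and InsH, beside 0.01 over all tested genes in each. All 4 comparisons share the control libraries.

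In the mean of the 4 lines against the control, 14 of the 27 passed, 8 higher and 6 lower, where 27.6% of all genes passed, 13.1% as higher and 14.5% as lower. All 8 line libraries lay above both control libraries for 4 of the 27 genes and below them for 5, against 28.0% of all genes (13.3% above and 14.7% below). The 6 libraries of InsF, InsG and InsH lay above the control for 14 and below it for 5, against 41.6% of all genes (20.4% and 21.2%). The 14 include ITGB3 and ITGA8, which reached the level of the expression filter in no control library. Their place above the control therefore supports nothing. Lower in each of the 4 lines were ITGA4, ITGB5 and LAMC3, and higher in each were ITGA9 and ITGAE. LAMB1 and LAMC1 passed as lower in InsE and as higher in InsF, InsG and InsH. No line comparison reached a call for 9 tested genes, namely ITGA2, ITGA7, ITGA8, ITGA10, ITGB4, ITGB7, LAMA3, LAMA5 and LAMB3. How many of all tested genes show each of these patterns over the 4 lines was not counted. The 38 genes lie on 15 chromosomes, with none on chromosome 11.

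**Figure D2:**
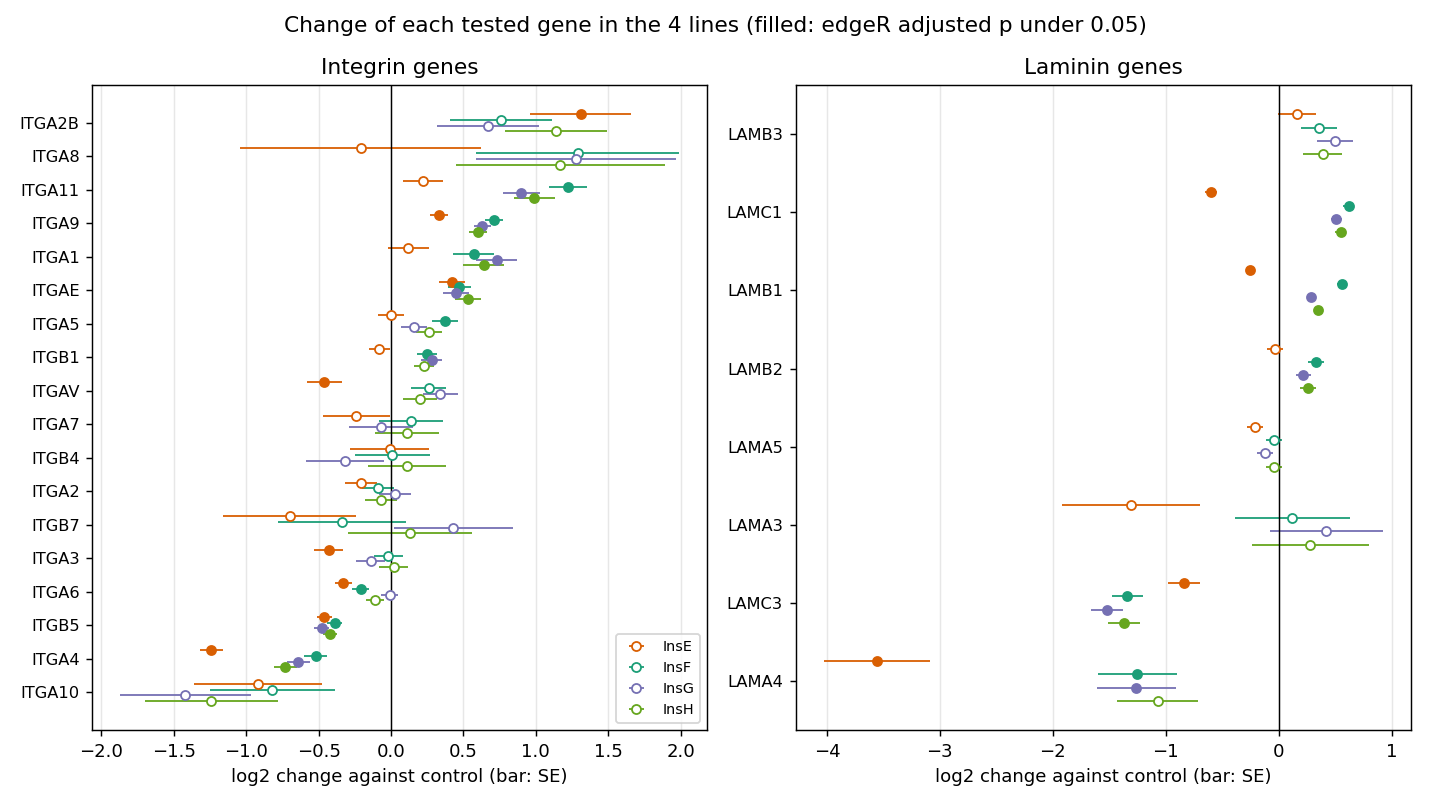
Log2 change of each tested integrin gene (left) and laminin gene (right) in each line against the control, with 1 SE as the bar. Filled points passed at an edgeR adjusted p under 0.05. LAMC1 and LAMB1 lie left of 0 in InsE and right of it in the other lines. ITGB3 is not drawn because the control held 0 counts.

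The laminin beta-1 and gamma-1 chains, partners in the same trimers, fell in InsE and rose in the other lines. LAMB1 (chromosome 7, 107923799 to 108003255, minus strand, hg38) stood at 1011 and 988 CPM in the control libraries, with InsE at 839 and 842, InsF at 1468 and 1480, InsG at 1223 and 1229 and InsH at 1270 and 1277. The InsE libraries were the lowest of the 10, the InsF libraries the highest, and no group overlapped another. LAMB1 had log2 changes of -0.25 ± 0.04 (SE), 0.56 ± 0.04, 0.29 ± 0.04 and 0.35 ± 0.04 in InsE, InsF, InsG and InsH, with edgeR adjusted p = 0.00185, 1.61e-05, 0.000855 and 0.000333. Each SE of an edgeR change, here and in the figures, was worked back from the test. It is the absolute log2 change divided by the square root of the F statistic.

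LAMC1 (chromosome 1, 183023460 to 183145592, plus strand) followed the same order with larger steps downward. It stood at 154 and 152 CPM in the control, with InsE at 102 and 99.4, InsF at 238 and 235, InsG at 221 and 215 and InsH at 225 and 224. The InsE libraries lay below the control and all libraries of the other lines above it. LAMC1 had log2 changes of -0.60 ± 0.05, 0.62 ± 0.05, 0.51 ± 0.05 and 0.55 ± 0.05 in InsE, InsF, InsG and InsH (edgeR adjusted p = 4.03e-05, 2.3e-05, 0.000108 and 6.79e-05). Calls of LAMB1 and LAMC1 held without any one of the 10 libraries, with a largest adjusted p of 0.0334 for LAMB1 in InsE and 0.00472 for LAMC1 in InsG. Among the 4 lines they differed with adjusted p = 1.54e-05 for LAMB1 and 4.24e-06 for LAMC1, in a comparison where 13.2% of all genes passed. Beside these rises, the summed level of 8 smooth muscle markers was 544 to 748 TPM in InsF, InsG and InsH, against 403 to 409 in the control and 390 to 411 in InsE. DES was at 0 counts, 3 of the 8 reached a mean of 1 TPM, and their part in the laminin pattern was not tested. In bulk RNA, fewer cells with a transcript and less of it per cell cannot be told apart.

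The fall of LAMB1 in InsE was a fall in counts and not in TPM. Its TPM was 403 and 383 in InsE against 401 and 413 in the control, and on log2(TPM + 1) the change was -0.05 with limma (adjusted p = 0.665). RSEM's effective length of LAMB1, a mean over the transcripts it assigned, was 3124 and 3132 bases in InsE, against 3700 and 3522 in the control and 3697 to 3873 in the other lines. The InsE libraries thus held fewer LAMB1 fragments assigned on average to shorter transcript models. LAMC1 kept its direction on the TPM scale, with 24.8 and 29.7 TPM in InsE against 42.9 and 47.0 in the control, though its call in InsG was lost there (limma adjusted p = 0.0558). The end of LAMB1 overlaps DLD on the opposite strand, which held 62925 counts over all libraries. Without a known strand setting, reads there cannot be told apart.

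LAMB2, the beta-2 chain, rose in InsF, InsG and InsH by small amounts. It stood at 96.0 and 95.2 CPM in the control, with InsE at 94.2 and 93.6, InsF at 119 and 122, InsG at 106 and 118 and InsH at 111 and 120. All libraries of InsF, InsG and InsH lay above the control, and those of InsE just below it. LAMB2 had log2 changes of 0.33 ± 0.07, 0.22 ± 0.07 and 0.26 ± 0.07 in InsF, InsG and InsH (edgeR adjusted p = 0.00652, 0.0409 and 0.0224) and -0.03 ± 0.07 in InsE. All 3 calls ended without control replicate 1 (adjusted p = 0.058, 0.179 and 0.128) or control replicate 2 (0.0595, 0.194 and 0.135). That in InsG was also lost without InsG replicate 2 (0.191) or either library of InsE (0.0522 and 0.0538) or InsF (0.0519 and 0.0547), and that in InsH without InsH replicate 2 (0.125). On the TPM scale LAMB2 stood higher in InsE, by 0.29 on log2(TPM + 1) with a limma adjusted p = 0.045, while its effective length was 1287 and 1196 bases in InsE against 1551 and 1558 in the control. LAMB3, the beta-3 chain of epithelial laminin, had 3.44 to 5.26 CPM over all libraries and no call.

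**Figure D3:**
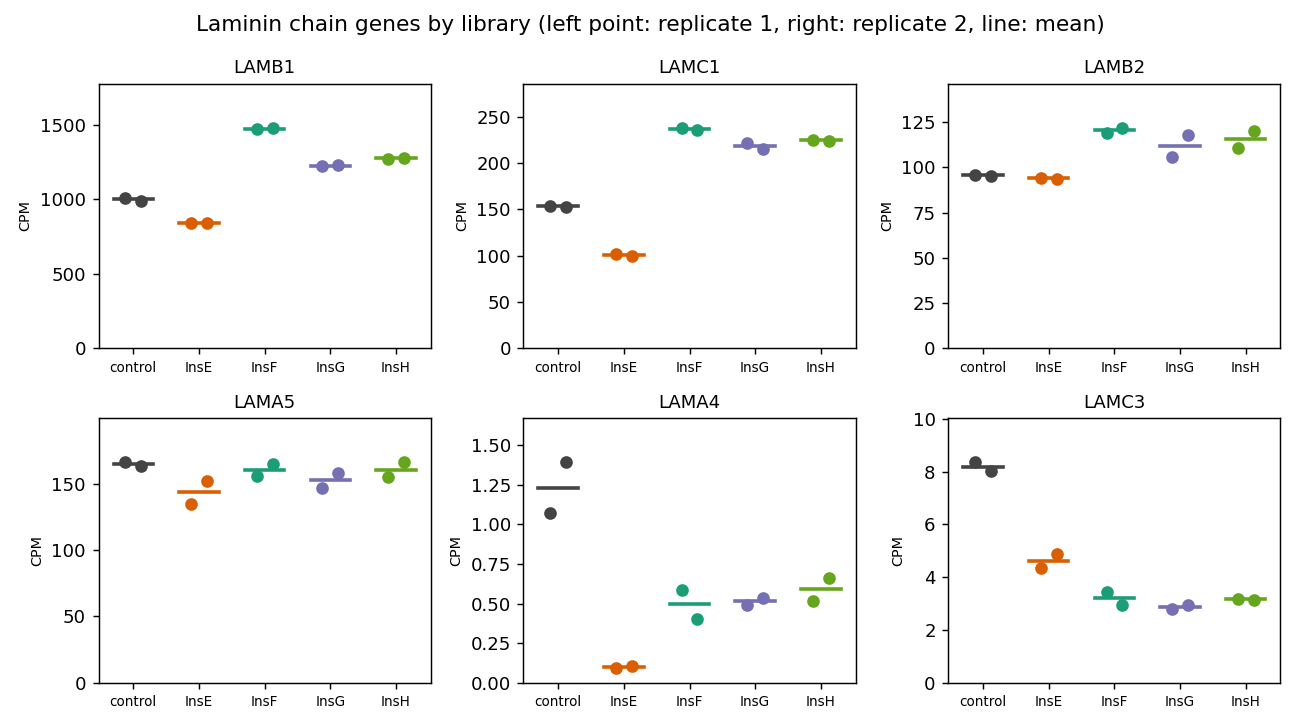
CPM of 6 laminin chain genes in each library (points, replicate 1 left and replicate 2 right; the line is the group mean, and each axis starts at 0). LAMB1 and LAMC1 are lowest in InsE, LAMC3 and LAMA4 are highest in the control, and the LAMA5 groups lie close together.

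Of the alpha chains, LAMA5 had no call against the control in any line. It stood at 166 and 163 CPM in the control, with InsE at 135 and 152, InsF at 156 and 165, InsG at 147 and 158 and InsH at 155 and 166. The InsE libraries lay below the control, and those of InsF and InsH overlapped it. LAMA5 had log2 changes of -0.21 ± 0.07 in InsE (edgeR adjusted p = 0.0664) and between -0.12 and -0.04 in the other lines. ADRM1, which overlaps LAMA5 on the opposite strand, held 57445 counts over all libraries. On TPM, LAMA5 RNA was at least 1.16 times that of LAMC1 in the control libraries, 2.29 and 2.26 times in InsE, and 0.883 to 1.00 times in the other lines. The ratio of these partner chains thus separated InsE, the control and the remaining lines without overlap.

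LAMA4, the alpha-4 chain of vessel and muscle basement membranes, was low and fell. It had 32 and 27 counts in the control libraries, with InsE at 3 and 1, InsF at 17 and 6, InsG at 21 and 6 and InsH at 12 and 8. In CPM the control libraries, at 1.07 and 1.39, lay above all others, and those of InsE, at 0.0960 and 0.106, below all others. LAMA4 passed the expression filter through the other groups, with no InsE library at its level, so the values in InsE are a description. LAMA4 had log2 changes of -3.56 ± 0.47 in InsE, -1.25 ± 0.35 in InsF and -1.26 ± 0.35 in InsG (edgeR adjusted p = 0.000719, 0.032 and 0.034), and -1.07 ± 0.36 in InsH (0.0676). The calls of LAMA4 in InsF and InsG were lost without any one of their own or the control libraries. Over the refits that each left out 1 of the 10 libraries, the change ran from -1.59 to -1.05 in InsF and from -1.44 to -1.08 in InsG. The call in InsE supports nothing, since no InsE library reached the filter's level. Its SE, worked back from the test, does not give the error of 3 and 1 counts. On log2(TPM + 1) LAMA4 had no call in any of these lines, at -0.65 in InsE, 0.06 in InsF, where the direction turned, and -0.59 in InsG (limma adjusted p = 0.195, 0.927 and 0.255). LAMA3 had 4 to 29 counts per library and no call.

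LAMC3, the gamma-3 chain, fell in each line and least in InsE. LAMC3 (chromosome 9, 131009082 to 131094473, plus strand) stood at 8.35 and 8.01 CPM in the control, with InsE at 4.35 and 4.87, InsF at 3.45 and 2.96, InsG at 2.78 and 2.95 and InsH at 3.19 and 3.15. Control, InsE and the other lines formed separate ranges, in the reverse order of LAMC1 for InsE and the other lines. LAMC3 had log2 changes of -0.84 ± 0.14, -1.34 ± 0.14, -1.52 ± 0.14 and -1.37 ± 0.14 in InsE, InsF, InsG and InsH (edgeR adjusted p = 0.00237, 0.000181, 0.00012 and 0.000233), and these calls held without any one library (largest adjusted p = 0.033). On log2(TPM + 1), the LAMC3 calls in InsE (-0.28, limma adjusted p = 0.318) and InsH (-0.59, 0.07) were lost. The difference of LAMC3 between InsE and the other lines had no call with DESeq2 (0.57, adjusted p = 0.122).

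Of the integrin beta chains, ITGB5 fell in each line. ITGB5 (chromosome 3, 124761948 to 124901418, minus strand) stood at 438 and 442 CPM in the control, with InsE at 309 and 331, InsF at 330 and 341, InsG at 314 and 319 and InsH at 318 and 340. Both control libraries lay far above the 8 line libraries. Among the lines the libraries of InsF lay above those of InsG, and the other pairs of lines overlapped. ITGB5 had log2 changes of -0.46 ± 0.05, -0.39 ± 0.05, -0.48 ± 0.05 and -0.42 ± 0.05 (edgeR adjusted p = 0.000384, 0.000904, 0.000352 and 0.000735), and leaving out any one library ended no call (largest adjusted p = 0.0134). A difference of ITGB5 among the 4 lines had an edgeR adjusted p = 0.613, and 0.00219 in a fit of the lines with the replicate number as a block. In that block fit, chosen after seeing the data, 56.8% of all genes differed.

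ITGB1 stood at 490 and 479 CPM in the control, with InsE at 476 and 437, InsF at 602 and 552, InsG at 622 and 555 and InsH at 592 and 546. All 6 libraries of InsF, InsG and InsH lay above the control, and both of InsE below it. ITGB1 had log2 changes of 0.25 ± 0.07 in InsF and 0.28 ± 0.07 in InsG (edgeR adjusted p = 0.0354 and 0.0251), 0.23 ± 0.07 in InsH (0.0545) and -0.08 ± 0.07 in InsE (0.452). The ITGB1 calls were lost without either control library (adjusted p = 0.123 to 0.212), without InsF replicate 1 in InsF (0.217) and without InsG replicate 1 in InsG (0.21). In TPM, the ratio of ITGB1 to ITGB5 was 1.05 and 1.06 in the control, 1.18 and 1.12 in InsE, and 1.48 to 1.77 in the other lines. The control, InsE and the remaining lines did not overlap in this ratio.

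ITGB3, the beta-3 chain that pairs with alpha-V or, in platelets, with alpha-IIb, was detected in InsF, InsG and InsH at a low level. ITGB3 (chromosome 17, 47253846 to 47311816, plus strand) had 0 counts in both control libraries and both InsE libraries, and 14 and 11 counts in InsF, while InsG and InsH each had 14 and 3. A count of 0 allows up to 3 counts, which is 0.0608 CPM over the control pair and 0.0737 over the InsE pair. Against the control floor ITGB3 was at least 9.37-fold, at least 5.18-fold and at least 7.93-fold higher in InsF, InsG and InsH. Against the InsE floor these bounds were 7.74-, 4.27- and 6.54-fold. Of all libraries, those that reached the level of the expression filter for ITGB3 were both of InsF and 1 of InsH. A gene that passes a filter in this way had to differ, so these values are a description, and the calls of ITGB3 counted for InsF, InsG, InsH and the comparisons between lines support nothing. AC068234.1, which overlaps ITGB3 on the same strand, held 10 counts over all libraries.

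Of the other beta chains, ITGB4, which pairs with alpha-6 in epithelial hemidesmosomes, had 1.47 to 2.75 CPM and ITGB7, a leukocyte chain, 0.212 to 0.716 CPM, with no call in any line. ITGB2, the common beta chain of leukocyte integrins, had 2 counts at most in any library. ITGB6 had 1 count in all, and ITGB8 at most 4 in a library.

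**Figure D4:**
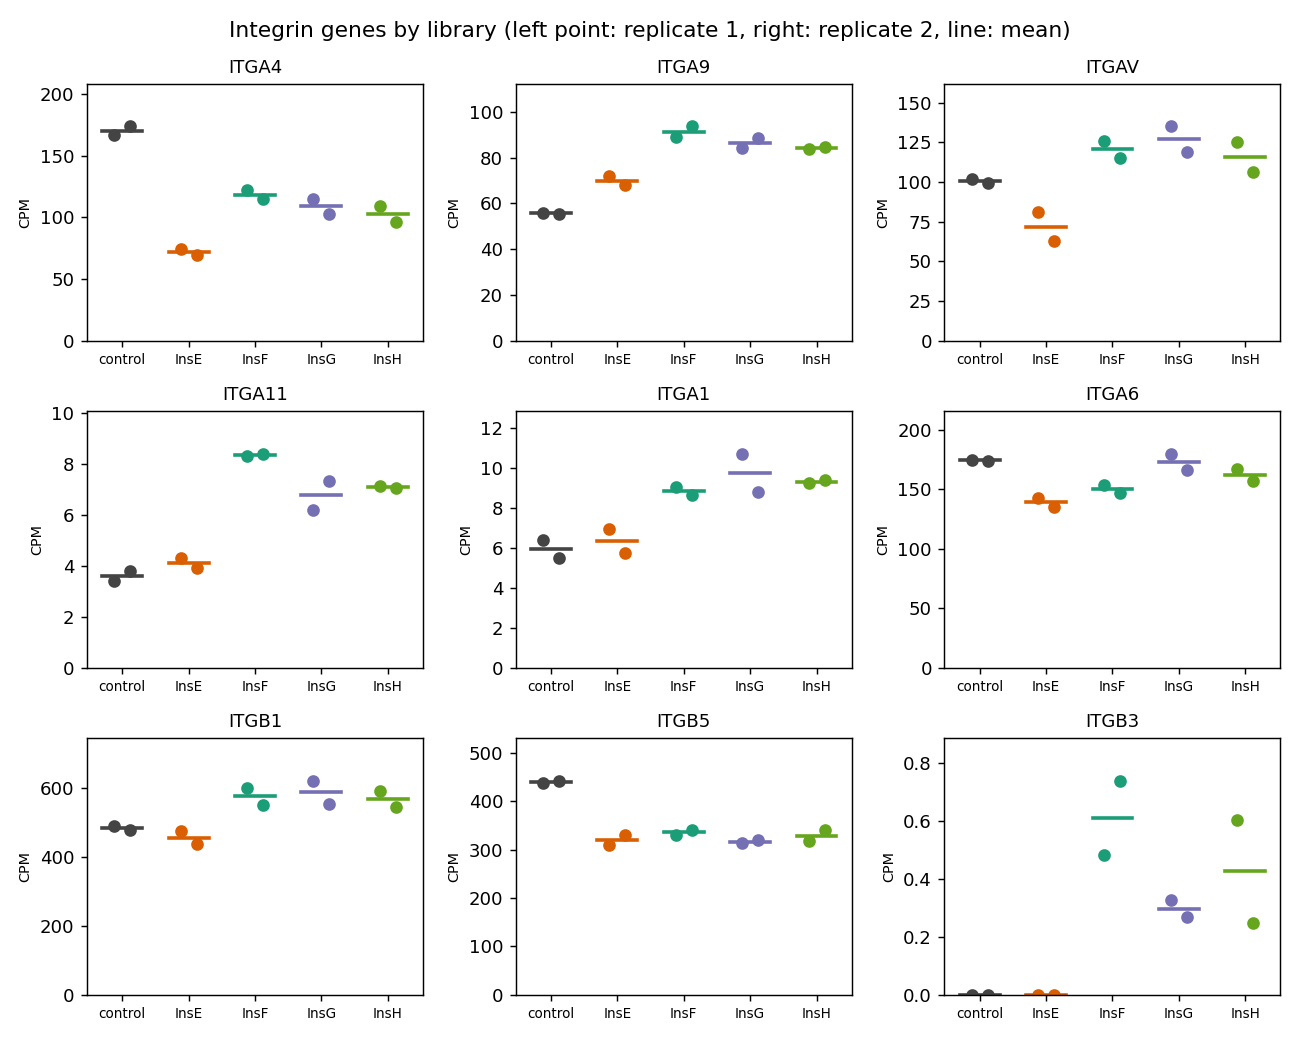
CPM of 9 integrin genes in each library (points, replicate 1 left and replicate 2 right; the line is the group mean, and each axis starts at 0). ITGA4 and ITGB5 are highest in the control, ITGA9 is lowest there, ITGAV is lowest in InsE, and ITGB3 is at 0 in the control and InsE.

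Alpha-4, which pairs with beta-1 to bind VCAM1 and fibronectin, fell most in InsE. ITGA4 (chromosome 2, 181457202 to 181536187, plus strand) stood at 167 and 174 CPM in the control, with InsE at 74.1 and 69.4, InsF at 122 and 115, InsG at 115 and 103 and InsH at 109 and 96.5. Both InsE libraries were below all others and both control libraries above. ITGA4 had log2 changes of -1.24 ± 0.08, -0.52 ± 0.08, -0.64 ± 0.08 and -0.73 ± 0.08 in InsE, InsF, InsG and InsH (edgeR adjusted p = 1.27e-05, 0.00123, 0.000473 and 0.000249). These calls held without any one library (largest adjusted p = 0.02). Alpha-9, the relative of alpha-4 that binds tenascin-C and osteopontin, moved the other way. ITGA9 stood at 56.0 and 55.5 CPM in the control, with InsE at 71.9 and 67.9, InsF at 89.2 and 93.7, InsG at 84.3 and 88.7 and InsH at 84.0 and 84.9. The control libraries were the lowest, those of InsE next, and those of the other lines above both. ITGA9 had log2 changes of 0.33 ± 0.06, 0.71 ± 0.06, 0.63 ± 0.06 and 0.60 ± 0.06 (edgeR adjusted p = 0.00398, 4.58e-05, 0.000123 and 0.000172), and leaving out any one library ended no call (largest adjusted p = 0.045). ITGA9-AS1, on the opposite strand, held 601 counts over all libraries.

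Among the RGD-binding alpha chains, ITGAV, partner of beta-5, beta-3 and beta-1, fell in InsE. ITGAV (chromosome 2, 186590065 to 186680901, plus strand) stood at 102 and 99.2 CPM in the control, with InsE at 81.3 and 62.5, InsF at 126 and 115, InsG at 135 and 119 and InsH at 125 and 106. The InsE libraries were the lowest and the 6 libraries of InsF, InsG and InsH the highest, though the InsE pair itself lay far apart. ITGAV had log2 changes of -0.46 ± 0.12 in InsE (edgeR adjusted p = 0.0234) and 0.26 ± 0.12, 0.34 ± 0.12 and 0.20 ± 0.12 in the other lines (0.153, 0.0719 and 0.276). The call in InsE was lost without InsE replicate 2 (-0.30, adjusted p = 0.114) or either control library (0.126 and 0.102).

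ITGA5 stood at 179 and 183 CPM in the control, with InsE at 172 and 191, InsF at 221 and 246, InsG at 190 and 216 and InsH at 204 and 231. InsE straddled the control and the other lines lay above it. ITGA5 passed in InsF, at 0.37 ± 0.09 (edgeR adjusted p = 0.0169), and lost that call without InsF replicate 2 (0.103) or either control library (0.117 and 0.0874). A difference of ITGA5 among the lines had an edgeR adjusted p = 0.0811, and 1.89e-14 in a fit of the lines with the replicate number as a block. That fit was chosen after seeing the data, and 56.8% of all genes differed in it.

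ITGA2B, the alpha-IIb chain of the platelet fibrinogen receptor, rose in InsE and in the mean of the lines. It had 1.34 and 0.872 CPM in the control, with InsE at 2.53 and 3.17, InsF at 1.35 and 2.62, InsG at 1.75 and 1.88 and InsH at 2.16 and 2.90. All line libraries were above the control, the lowest by a narrow margin. ITGA2B had log2 changes of 1.31 ± 0.35 in InsE (edgeR adjusted p = 0.0245) and 0.97 ± 0.29 in the mean of the lines (0.0324). The InsE call was lost without any one InsE or control library (adjusted p = 0.0607 to 0.155), and that of the mean without control replicate 1 (0.0855) or replicate 2 (0.264). Of 7 platelet markers, which include ITGA2B, GP9, PF4, PPBP and TREML1 were at 0 counts in every library. ITGA8, which pairs with beta-1 and binds nephronectin, had 0 to 22 counts per library and no call.

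The collagen-binding chains ITGA1 and ITGA11 rose in InsF, InsG and InsH. ITGA11 stood at 3.39 and 3.80 CPM in the control, with InsE at 4.32 and 3.91, InsF at 8.32 and 8.41, InsG at 6.19 and 7.34 and InsH at 7.12 and 7.04. All libraries of the latter 3 lines lay above those of InsE and the control. ITGA11 had log2 changes of 1.22 ± 0.13, 0.90 ± 0.13 and 0.99 ± 0.14 in InsF, InsG and InsH (edgeR adjusted p = 0.000226, 0.00178 and 0.00113), calls that held without any one library, and 0.22 ± 0.14 in InsE (0.297). On log2(TPM + 1) the ITGA11 calls in InsG and InsH were lost (limma adjusted p = 0.0996 and 0.121).

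ITGA1 had 6.37 and 5.49 CPM in the control, with InsE at 6.95 and 5.71, InsF at 9.01 and 8.61, InsG at 10.7 and 8.77 and InsH at 9.23 and 9.36. The InsE pair overlapped the control, and the other 6 libraries lay above both. ITGA1 had log2 changes of 0.57 ± 0.14, 0.73 ± 0.14 and 0.64 ± 0.14 in InsF, InsG and InsH (edgeR adjusted p = 0.0169, 0.00553 and 0.0121). Without control replicate 2 these calls of ITGA1 were lost (adjusted p = 0.138, 0.0656 and 0.107), as they were without InsF replicate 1, InsF replicate 2 and control replicate 1 for InsF (0.0994, 0.05 and 0.0519), InsG replicate 1 for InsG (0.0933) and InsH replicate 1 for InsH (0.066). On log2(TPM + 1) ITGA1 had no call in these lines, at 0.38, 0.38 and 0.15 (limma adjusted p = 0.36, 0.362 and 0.754). In the mean of the lines ITGA1 also lost its call without control replicate 2 (0.127). PELO lies within ITGA1 on the same strand and held 10702 counts over all libraries, so the assignment of reads between them is uncertain. ITGA2 ranged from 23.3 to 32.3 CPM with no call. ITGA10 had 1.01 and 1.23 CPM in the control and 0.331 to 0.875 in the lines, and in the mean of the lines it fell by 1.10 on the log2 scale (edgeR adjusted p = 0.0317), a call lost without InsF replicate 1 (0.0534), InsG replicate 1 (0.067) or either control library (0.144 and 0.238).

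The laminin-binding alpha chains ITGA6 and ITGA3 fell in InsE. ITGA6 stood at 175 and 174 CPM in the control, with InsE at 143 and 135, InsF at 154 and 147, InsG at 180 and 166 and InsH at 167 and 157. Both InsE libraries lay below all others, and InsG straddled the control. ITGA6 had log2 changes of -0.33 ± 0.06 in InsE and -0.21 ± 0.06 in InsF (edgeR adjusted p = 0.00442 and 0.031). The InsF call was lost without any one InsF or control library (adjusted p = 0.0747 to 0.158), and that of ITGA6 in the mean of the lines (-0.17 ± 0.05, 0.027) without control replicate 1 (0.196) or replicate 2 (0.182).

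ITGA3 stood at 28.1 and 25.5 CPM in the control, 19.7 and 20.1 in InsE, and 22.9 to 29.4 in the other lines, which overlapped the control. It fell in InsE by 0.43 ± 0.10 on the log2 scale (edgeR adjusted p = 0.0157), a call lost without InsE replicate 1 (0.103) or control replicate 1 (0.131). On log2(TPM + 1) the ITGA3 change in InsE was 0.00 (limma adjusted p = 0.994). ITGA7, the muscle laminin receptor chain, had 1.69 to 2.82 CPM and no call.

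ITGAE, the alpha-E chain known from intraepithelial lymphocytes, was the leukocyte-type alpha chain with a level. It stood at 18.2 and 19.8 CPM in the control, with InsE at 25.2 and 25.7, InsF at 24.7 and 28.1, InsG at 25.1 and 27.0 and InsH at 26.9 and 28.2. All line libraries lay above the control and overlapped one another. ITGAE had log2 changes of 0.42 ± 0.09, 0.47 ± 0.08, 0.45 ± 0.09 and 0.53 ± 0.09 (edgeR adjusted p = 0.0073, 0.00409, 0.00594 and 0.00249). Without control replicate 1 the calls of ITGAE in InsE, InsF and InsG were lost (adjusted p = 0.0856, 0.059 and 0.0768). HASPIN, a kinase gene within ITGAE on the opposite strand, held 6338 counts over all libraries, and reads of the overlap cannot be told apart. ITGB7, the beta partner of alpha-E, had at most 22 rounded counts in any library.

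InsE stood apart from the other 3 lines over much of the set. Against the mean of InsF, InsG and InsH, 15 of the 27 tested genes passed, 14 lower and 1 higher in InsE, where 24.2% of all tested genes passed, 12.8% as lower and 11.4% as higher. The median log2 change of the 27 was -0.32 beside 0.01 over all genes. For 16 genes both InsE libraries lay below all 6 others, and for 1, LAMC3, above. The libraries of 34.1% of all genes were apart in this way, 17.5% as lower and 16.6% as higher. Among the 16, ITGA8, ITGB3, ITGB7, LAMA3 and LAMA4 had no InsE library at the level of the expression filter. They passed it through groups where they are higher, so their place is a description. ITGB3 and LAMA4 are also among the 14 called lower. Smooth muscle markers summed to 390 to 411 TPM in InsE and 544 to 748 in these lines, and 8 fibroblast markers to 1315 to 1408 and 1499 to 1634, with FAP and PDPN at 0 counts. Their part in this difference was not tested.

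The differences of InsE from the other lines were -1.16 ± 0.04 (log2 ± SE) for LAMC1, -0.65 ± 0.03 for LAMB1, -0.73 ± 0.10 for ITGAV, -0.61 ± 0.07 for ITGA4 and -0.81 ± 0.12 for ITGA11, with edgeR adjusted p = 4.23e-07, 2.47e-06, 0.00099, 0.000221 and 0.00102. These 5 held without any one library. ITGA9 (-0.32 ± 0.05, adjusted p = 0.00166) and LAMB2 (-0.30 ± 0.06, 0.00439) also held. LAMA4 differed by -2.36 ± 0.46 (0.00508), ITGA1 by -0.53 ± 0.12 (0.0112), ITGB1 by -0.34 ± 0.06 (0.00357) and ITGA6 by -0.22 ± 0.05 (0.0128). Without InsE replicate 1 the call of LAMA4 was lost (0.136). Without InsE replicate 2 those of ITGA1 (0.0837), ITGB1 (0.0578), ITGA6 (0.135) and LAMC3 (0.0522) were lost. ITGA3, at -0.39 ± 0.09 (0.0121), lost its call without either InsE library (0.116 and 0.0558). ITGA5, at -0.26 ± 0.07 (0.03), lost it without InsE replicate 1 (0.25) or either control library (0.0543 and 0.0572). LAMC3 was higher in InsE by 0.56 ± 0.12 (0.00824).

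**Figure D5:**
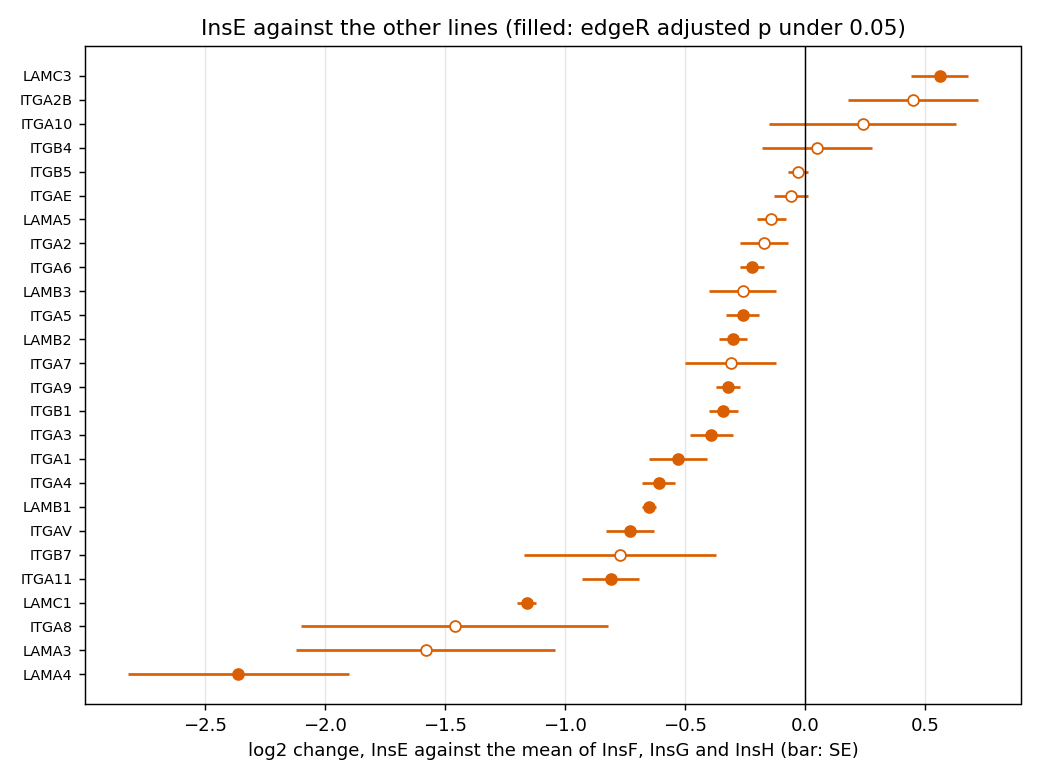
Log2 change of each tested gene in InsE against the mean of InsF, InsG and InsH, with 1 SE as the bar. Filled points passed at an edgeR adjusted p under 0.05. Among the filled points LAMC3 alone lies right of 0, and LAMA4 (-2.36) and LAMC1 (-1.16) lie farthest left. No InsE library of LAMA4 reached the level of the expression filter, so its point is a description. ITGB3 is not drawn because InsE held 0 counts.

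Among the 4 lines as such, 12 of the 27 genes differed, where 13.2% of all genes did: ITGA4, ITGA6, ITGA9, ITGA11, ITGAV, ITGB1, ITGB3, LAMA4, LAMB1, LAMB2, LAMC1 and LAMC3. Without InsE replicate 1 the count was 4, beside 4.39% of all genes. Same-numbered libraries of the lines deviated together, and with the replicate number as a block in a fit of the 4 lines alone 19 of 26 tested genes differed, where 56.8% of all genes did. That fit added ITGA1 (edgeR adjusted p = 0.000137 with the block, 0.0594 without), ITGA2 (0.00356), ITGA3 (6.79e-06), ITGA5 (1.89e-14), ITGB5 (0.00219), LAMA3 (0.048) and LAMA5 (1.4e-06). For InsE against the other lines the same replicate block gave 20 calls of 26, 1 higher and 19 lower, where 50.7% of all genes passed. It added ITGA2 (-0.18, adjusted p = 0.00324), ITGA8 (-1.41, 0.0329), ITGB5 (-0.04, 0.0206), LAMA3 (-1.61, 0.00947) and LAMA5 (-0.16, 5.36e-07). In the fit of all libraries ITGA8 reached the filter's level in InsF, InsG and InsH and in no control or InsE library, so its value is a description. LAMA3 reached it in InsF, InsG, InsH and 1 control library and in no InsE library. The calls of LAMA3 with the block are therefore a description too. The same holds for ITGB3 and LAMA4, which also had no InsE library at that level.

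The 11 genes below the filter included ITGAD, ITGAL, ITGAM, ITGAX, ITGB2, ITGB6, ITGB8, LAMA1, LAMA2 and LAMB4. These 10 had 0 to 52 counts each over the 10 libraries, and ITGAX had none. ITGAL, ITGAM, ITGAX, ITGAD and ITGB2 are chains of leukocyte integrins. LAMB4 and LAMA1 had the most, with up to 14 and 9 counts in a library. In a fit with no filter on low counts none of those with counts passed in any of the 7 comparisons (edgeR, smallest adjusted p = 0.312, and 0 at an unadjusted p under 0.05).

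Genes that work with integrins on the inner side of the membrane were read from the same fit. This list and those below were chosen with earlier results of these data known. Their shares, set beside those of all genes, are therefore a description. Over all tested genes, 13.1% were higher and 14.5% lower in the mean of the lines, and 11.4% higher and 12.8% lower in InsE against the other lines. Of 29 tested activators and adhesion adaptors, 5 were higher and 6 lower in the mean of the lines, and 1 was higher and 12 lower in InsE against the other lines, with medians of 0.02 and -0.13. These calls were 37.9% and 44.8% of the list, against 27.6% and 24.2% of all genes. The latter included VCL (vinculin, -0.59 ± 0.04, edgeR adjusted p = 7.29e-06), ZYX (zyxin, -0.64 ± 0.14, 0.0131), TES (testin, -0.49 ± 0.04, 4.19e-05) and FLNA (filamin A, -0.48 ± 0.06, 0.00066). VCL stood at 348 to 353 CPM in the control, 292 to 300 in InsE and 418 to 482 in the other lines, so the 3 ranges did not overlap. FERMT2, the integrin activator kindlin-2, rose by 0.33 ± 0.05 in the mean of the lines (0.0013), with 103 CPM in both control libraries and 105 to 145 in the lines.

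Of 19 tested kinases and docking proteins of integrin signalling, 4 were higher and 9 lower in the mean of the lines, with a median of -0.14, and 1 was higher and 5 lower in InsE against the other lines. They made up 68.4% and 31.6% of this list, against 27.6% and 24.2% of all genes. NEDD9, a docking protein for focal adhesion kinase, rose by 1.45 ± 0.07 (edgeR adjusted p = 1.58e-06), from 16.3 CPM in both control libraries to 28.9 to 31.5 in InsE and at least 45.7 in the other lines. FYN, a SRC family kinase, fell by 0.82 ± 0.09 on the log2 scale (0.000176) and ARHGEF6, a RAC exchange factor, by 0.77 ± 0.07 (4.65e-05). Of 11 tetraspanins and other membrane partners, 2 were higher and 2 lower in the mean of the lines, and 1 was higher and 4 lower in InsE against the others. The share in the mean, 36.4%, was near the 27.6% of all genes, and that in InsE against the others was 45.5% against 24.2%. CD82, a tetraspanin, differed there by -0.65 ± 0.14 (0.00852), and PLAUR, the urokinase receptor, by 0.77 ± 0.16 (0.00863).

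Of 12 tested basement membrane and laminin partners, 3 were higher and 4 lower in the mean of the lines, and 1 was higher and 7 lower in InsE against the others, or 58.3% and 66.7% of the list against 27.6% and 24.2% of all genes. SMOC2, a secreted calcium-binding matrix protein, rose by 2.05 ± 0.13 in the mean of the lines (edgeR adjusted p = 6.1e-06) but stood at 2.82 to 3.39 CPM in InsE against 2.31 to 3.02 in the control, and at 14.7 to 20.8 in the other lines. NTN4, netrin-4, which binds laminin gamma chains, stood at 1.08 to 1.51 CPM in the control, 0.741 to 1.5 in InsE and 3.76 to 6.53 in the other lines, a difference of InsE from the others of -1.91 ± 0.23 (0.000368). HSPG2, perlecan, fell by 0.87 ± 0.07 on the log2 scale in that mean (2.26e-05), from 89.0 to 89.6 CPM to 45.7 to 54.0, with InsE among the rest.

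Of 18 tested integrin ligands other than laminins and collagens, 6 were higher and 8 lower in the mean of the lines. In InsE against the other lines 0 were higher and 12 lower, with a median of -0.67. The shares called were 77.8% and 66.7%, against 27.6% and 24.2% of all genes. No difference between the lists was tested. ECM1, a secreted matrix glycoprotein, stood at 33.9 to 36.4 CPM in the control, 4.34 to 4.77 in InsE and 43.9 to 58.6 in the other lines (InsE against the others -3.42 ± 0.12, edgeR adjusted p = 4.23e-07). The InsE libraries of ECM1 lay far below the rest. TGFBI, a ligand of several integrins, differed there by -2.20 ± 0.10 (1.26e-06). VCAM1, the ligand of alpha-4, was low, at 0.168 to 0.205 CPM in the control, 0.317 to 0.320 in InsE and 0.627 to 1.41 in the other lines (-1.47 ± 0.38, 0.0199). It reached the level of the expression filter in InsF, InsG and InsH alone, so these values are a description. The call of VCAM1, counted among the 12 lower, supports nothing. POSTN, periostin, rose by 3.88 ± 0.14 in the mean of the lines (3.46e-07). It stood at 0.667 to 0.939 CPM in the control, 6.88 to 7.62 in InsE and 11.6 to 18.6 in the other lines. The genes of these other lists were not refitted without single libraries.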

How the data were processed

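The authors deposited, for each library, expected counts per gene, which are RSEM's estimates of fragments and are not normalised between libraries, and TPM, which RSEM scaled by length and total. Their build was hg38 and their tools included STAR 2.5.3, RSEM 1.3.2 and DESeq2 1.38.3, per the submitters' processing notes. Per the labels' protocols, polyadenylated RNA and the NEBNext Ultra II RNA kit were used. Neither annotation release nor strand setting is given in the sources. A series table with 10 value columns that match no label was not used. Expected counts were rounded, and edgeR 4.0.16 was run on them (robust quasi-likelihood fit, TMM, minimum count of 10, two-sided, 5 residual degrees of freedom) in R 4.3.3, with all 10 libraries in one fit. DESeq2 1.42.0, limma 3.58.1 on log2(TPM + 1) and log2(TPM + 0.1), other filters, no TMM and a replicate block served as alternatives. All genes of the symbol rule are counted, the values of 1 are not reported here, and from each other list up to 4 called genes with the largest change were eligible for naming. The members and lists were chosen with earlier results of these data known. Positions came from GENCODE release 29, to which all 38 members matched by identifier. Deviations of same-numbered libraries correlated at 0.70 to 0.74 for the 6 pairs of lines and at 0.05 for the control with each line, over 9849 genes. The numbers thus pair the lines and not the control, and the pairing comes from the data, not the labels. The TMM factors were 0.969 and 0.971 in the control libraries and 1.003 to 1.012 in those of the lines. What part this difference had in changes shared by the 4 lines, such as that of ITGB5, was not tested. On simulated counts for InsE against control (15554 genes), recovery by edgeR was 62.7% at a true 1.5-fold change, 77.6% at 2-fold and 95.5% at 4-fold. Of the unchanged genes 11 were called. The 200 changed genes had a mean of at least 1 CPM, so lower genes such as LAMA4 and ITGB3 are not covered. The simulated libraries shared no deviation by replicate number. Floors cover counting error only.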

Additional observations from a re-analysis of the deposited data

Results flagged for a closer look

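For 12 of the 27 tested genes the 4 lines did not change alike against the control (edgeR, any difference between lines), where 13.2% of all tested genes passed. The adjusted p was 4.24e-06 for LAMC1, 1.54e-05 for LAMB1, 0.00147 for ITGA4, 0.00544 for ITGA11, 0.00725 for ITGAV and 0.00994 for ITGA9. It was 0.0248 for LAMB2, 0.0251 for ITGB1, 0.0277 for ITGA6, 0.035 for LAMA4, 0.0392 for ITGB3 and 0.0461 for LAMC3. ITGB3 had passed the expression filter through lines where it is high, so its call supports nothing. LAMA4 had no InsE library at the filter's level, so its call is a description. LAMC1, LAMB1, ITGA4 and ITGAV kept this call without any one library, with ITGAV reaching 0.0496. ITGA11 lost it without InsE replicate 1 (0.0528), and ITGA9 without InsE replicate 1 (0.0557) or 2 (0.0912). The other 6 lost it without either InsE library and some others, with a largest adjusted p of 0.156 for LAMB2, 0.232 for ITGB1, 0.142 for ITGA6, 0.441 for LAMA4, 0.269 for ITGB3 and 0.194 for LAMC3.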

How the results depend on the processing

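On deposited TPM with limma, fewer of the 27 genes passed. With a pseudocount of 1 these were 6 in InsE, 8 in InsF, 8 in InsG, 8 in InsH, 9 in the mean of the lines, 5 among the lines and 6 for InsE against the other lines. The share of all genes was lower too, at 11.5%, 10.7%, 8.54%, 8.79%, 14.4%, 6.33% and 17.4%. With 0.1 the counts were 6, 8, 7, 8, 10, 5 and 7 in the same order. Among values with a call in either fit, the direction turned for LAMB2 in InsE (0.29 with either pseudocount). It also turned for ITGA3 in InsE against the other lines (0.10 and 0.09) and LAMA4 in InsF (0.06 with a pseudocount of 1). ITGA3 in InsE was left with no change (0.00 with either). Calls also lost there with a pseudocount of 1 included ITGAV and ITGA9 in InsE (limma adjusted p = 0.0611 and 0.0563), ITGA4 in InsF (0.0581), and ITGA11 in InsG (0.0996) and InsH (0.121). With DESeq2 the calls of LAMA4 in InsF (0.328), ITGA1 in InsF (0.0987) and InsH (0.0633), LAMB2 in InsG (0.0667), ITGA10 and ITGA2B in the mean (0.217 and 0.0684), and ITGA1 and LAMC3 in InsE against the others (0.0537 and 0.122) were lost. Leaving out 1 library, the counts ran from 8 to 12 in InsE, 8 to 15 in InsF, 8 to 13 in InsG, 8 to 12 in InsH, 9 to 15 in the mean, 4 to 11 among the lines and 11 to 16 for InsE against the others. The lowest were without control replicate 1 in InsF, without InsE replicate 1 among the lines and without control replicate 2 in the mean, with 9.05%, 4.39% and 10.4% of all genes called there against 22.3%, 13.2% and 27.6% with all libraries. At the lowest counts in InsE, InsG, InsH and InsE against the others, the share of all genes called was lower too. The fall in calls was thus not limited to the integrin and laminin genes. With only the 4 lines fitted 7 differed among them, beside 8.9% of all genes. With the replicate number as a block in those lines 19 did, beside 56.8% of all genes (a fit chosen after seeing the data). A replicate block over all libraries gave 14, 16, 17 and 15 calls in InsE, InsF, InsG and InsH, 17 in the mean, 16 among the lines and 18 for InsE against the others, while the shares of all genes rose to 38.2%, 37.8%, 37.1%, 34.2%, 42.9%, 35.0% and 38.2%. The numbers do not pair control and lines. Of the refitted values of single genes, 3026 kept their call or stayed without one, 233 lost and 93 gained a call. A further 7 had the opposite sign in the refit, with a call in the main fit or the refit. Among these are the values of 0.00 for ITGA3 in InsE. Values with no call in either fit were not checked for direction. The cause of these changes was not tested. Replicate 2 depth of 9.4 to 20.1 M counts limits the genes at few counts, such as ITGB3 and LAMA4.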
